A study of Mus musculus with 8 samples.

Results

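The 9 genes described here encode the parts of the keratinocyte that hold the epidermis to the basement membrane: the integrin subunits Itga6, Itgb4, Itga3 and Itgb1, the transmembrane collagen Col17a1, the plakins Dst and Plec, and the laminin chains Lama3 and Lamb3. They were taken as a list of gene names from the 21690 genes in an expression table of mouse epidermis. All 9 were in the table, passed a filter of a mean of at least 1 TPM, and lay above 1 TPM in every library. TPM is a share of all transcripts corrected for transcript length, so levels of different genes can be set side by side.

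The study sequenced RNA from back-skin epidermis of mouse pups at postnatal day 5, in 4 control and 4 experimental libraries that the labels call biological replicates. Control pups were Esrp1flox/flox; Esrp2-/-, and experimental pups were K5rTA tetOCre Esrp1flox/flox; Esrp2-/-. ESRP1 and ESRP2 are epithelial RNA-binding proteins that regulate alternative splicing. All pups of both groups were Esrp2-null by genotype and their mothers ate high-dose doxycycline chow from embryonic day 17 to postnatal day 5, so the groups differed in the loss of Esrp1 and in the transgenes. The Cre recombinase depends on a transactivator named for keratin 5, a gene of the basal layer, the layer in which the 9 adhesion genes are also made. The controls carried no Cre.

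Esrp1 read between 131 and 162 TPM in the controls and between 49.8 and 75.6 TPM in the experimental libraries (log2 change -1.13, SE 0.17, limma adjusted p = 0.0112), so the transcript was reduced and not absent. Esrp2, null by genotype, read 0 to 3.31 TPM in controls, against 3.25 to 5.28 TPM in experimental libraries, and which part of the gene these values come from was not tested. Between 10401 and 11640 genes per library lay above 1 TPM, and sequencing depth is unknown because TPM does not keep it. Mitochondrial genes took 18.2% and 17.5% of the TPM in experimental libraries 2 and 4, and 10.6% to 12.6% elsewhere. Keratinocyte markers were present as the tissue label says, and all 5 endothelial markers were at 0 in every library. Summed dermal fibroblast markers (7 genes, 3 of them at 0 everywhere) read 0 to 29.6 TPM in controls and 0 to 3.29 TPM in experimental libraries. Other cells were present. Summed erythroid markers (5 genes) differed widely between libraries, at 181.3 to 9583 TPM in controls, against 221.6 to 4178 TPM. Melanocyte markers (5 genes) summed to 32.44 to 142.9 TPM, against 28.13 to 75.55 TPM. Langerhans cell and macrophage markers (6 genes) summed to 101.5 to 377.4 TPM, against 137.1 to 268.9 TPM.

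Hemidesmosomes are rivets on the underside of basal keratinocytes. Integrin alpha6beta4 and collagen XVII cross the membrane, plectin and the epithelial form of dystonin (BPAG1e) tie them to the keratin filaments inside, and laminin-332 is their ligand in the basement membrane outside. Integrin alpha3beta1 binds the same laminin but connects to actin instead. Inherited loss of many of these proteins causes forms of epidermolysis bullosa, in which the epidermis detaches.

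Among the 9 genes, Itga6 was the one that the authors list with a changed transcript form. Itga6 (ENSMUSG00000027111.16; chromosome 2, 71745616 to 71858416, plus strand, GRCm38) encodes the alpha6 chain, whose cytoplasmic tail comes in an A form and a B form. The tail is set by a cassette exon of 130 bases, exon 25 of 26 in its GENCODE transcript, at 71853534 to 71853663. With the exon, the reading frame runs for 105 bases and ends at a stop codon inside the exon, which leaves 22 bases after the stop. Without it, the frame goes straight into the last exon and ends there. Both coding stretches are shown because the junction values below decide between them. They are read 5′ to 3′ on the plus strand of GRCm38 from the first codon after the shared exon, with the stop codon in capitals.
alpha6A tail, exon included, chr2:71853534-71853641: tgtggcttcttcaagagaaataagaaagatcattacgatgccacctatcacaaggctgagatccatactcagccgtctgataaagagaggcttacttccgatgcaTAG
alpha6B tail, exon skipped, chr2:71855854-71856015: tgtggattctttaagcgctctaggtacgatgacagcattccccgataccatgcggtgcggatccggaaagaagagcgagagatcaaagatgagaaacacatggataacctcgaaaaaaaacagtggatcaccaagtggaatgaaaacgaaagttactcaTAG
The A stretch holds 35 codons before its stop and the B stretch 53. The first 6 codons of both encode the same residues although only 14 of their 18 bases are identical, and the stretches part after that.

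The authors' deposited splicing table gives PSI, which says what part of the reads at a splice site runs through a given junction, as 1 value per group with no value per library. The junction into the Itga6 exon had a PSI of 0.805 in control and 0.472 in experimental epidermis in the authors' deposited table. At the same upstream site, the junction that skips the exon went from 0.076 to 0.389. Seen from the last exon, the junction out of the cassette exon went from 0.933 to 0.563, and the skipping junction from 0.067 to 0.437. At the upstream site these junctions do not account for all reads in either group, and where the rest run is not described here. Of the A and B forms, controls therefore made mostly A, and experimental epidermis made them in more equal shares. The authors' posterior probability that the PSI differed by at least 0.15 was 1.0 for all 4 entries.

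**Figure D1:**
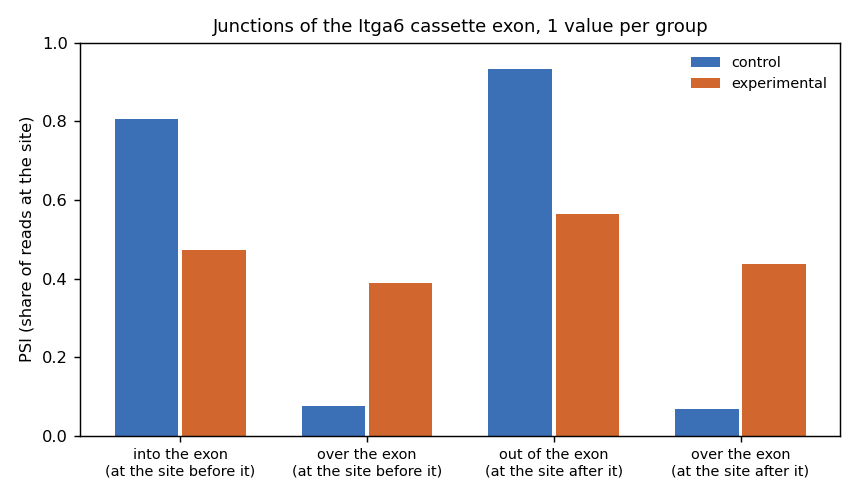
PSI of the 4 junction entries of the Itga6 cassette exon, as a share of the reads at each site, in control (blue) and experimental (orange) epidermis, 1 value per group from the authors' deposited table and so without error bars. Both inclusion junctions are lower in experimental epidermis (0.472 against 0.805 and 0.563 against 0.933) and both skipping entries are higher.

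Itga6 was the only one of the 9 members in that table of 236 genes. The table keeps changed events, since 98.7% of its genes have an entry at a posterior probability of at least 0.95, so a gene's presence there is a description and not a test. Itga6's greatest absolute PSI change of 0.37 in the authors' deposited table equals the median over its genes (0.37), and 117 genes had a greater one. Among 73 cassette exon events, 45 changed more than the Itga6 exon, against a median of 0.417.

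The total level of Itga6, by contrast, spread within the groups as much as between them. It read 9.12, 10.3, 6.32 and 1.93 TPM in control libraries 1 to 4, against 5.29, 1.93, 6.75 and 5.23 TPM in experimental libraries 1 to 4 (numbers within a group are names only). Control library 4 and experimental library 2 were equally low, and the other 3 experimental libraries lay between control libraries 4 and 1. Its means were 6.91 ± 3.71 and 4.8 ± 2.04 TPM (SD, n = 4 each). The log2 change in limma, a linear model fitted over 10682 genes on log2(TPM + 1), was -0.36 (SE 0.44, 95% interval -1.33 to 0.60, adjusted p = 0.691).

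None of the 9 genes passed an adjusted p of 0.05 in limma, where 2.46% of all genes tested did (98 higher and 165 lower). None reached an unadjusted p of 0.05 either (16.9% of all genes), and in none were the groups free of overlap (12.6% of all genes). Adjusted p ranged from 0.442 to 0.948, and exact two-sided permutation tests over the libraries gave p from 0.286 to 0.857, where 4 against 4 libraries can go down to 0.0286. The log2 change was below 0 for 9 of 9 genes, with a median of -0.41, beside 74.5% and a median of -0.18 over all genes tested. The authors' deposited expression table lists 748 genes, all with falls, and none of the 9 members, while it lists 4.72% of the genes tested here.

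Itgb4 (ENSMUSG00000020758.15; chromosome 11, 115974709 to 116008412, plus strand) encodes the beta4 chain, the obligate partner of alpha6 in the hemidesmosome, with a very long tail that binds plectin. It read 21.9, 14.6, 10.6 and 2.58 TPM in the controls, against 4.01, 5.70, 10.7 and 7.06 TPM in the experimental libraries. Every experimental library lay below control libraries 1 and 2 and above control library 4. The means were 12.4 ± 8.06 and 6.87 ± 2.85 TPM (SD, n = 4 each), and limma put the log2 change at -0.56 (SE 0.50), with an adjusted p of 0.592.

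For the alpha3beta1 pair, too, control libraries 1 and 2 were highest and control library 4 lowest. Itga3 (ENSMUSG00000001507.16; chromosome 11, 95044474 to 95076801, minus strand) read 13.3, 9.81, 6.88 and 1.52 TPM in controls, against 2.86, 4.18, 7.13 and 5.13 TPM in experimental libraries (log2 change -0.41, SE 0.48, limma adjusted p = 0.684). Itgb1 (ENSMUSG00000025809.15; chromosome 8, 128685654 to 128733200, plus strand), whose product pairs with many alpha chains, read 27.5, 20.7, 10.6 and 4.36 TPM in controls, against 6.61, 6.48, 9.91 and 7.52 TPM in experimental libraries. Its experimental libraries lay close together, the highest 1.53 times the lowest, while the controls spanned 6.30 times. With a log2 change of -0.72 (SE 0.44, 95% interval -1.70 to 0.27), Itgb1 had the lowest adjusted p of the members, 0.442 in limma.

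Col17a1 (ENSMUSG00000025064.15; chromosome 19, 47646344 to 47692094, minus strand) encodes collagen XVII, the hemidesmosomal collagen that spans the membrane and reaches into the basement membrane. It was the most abundant member in all 8 libraries, at 109.5, 83.0, 62.2 and 13.9 TPM in controls, against 18.5, 29.2, 60.3 and 34 TPM in experimental ones. Control library 3 and experimental library 3 were nearly level, and control library 4 lay below every experimental library. The means were 67.2 ± 40.4 and 35.5 ± 17.8 TPM (SD, n = 4 each), and limma put the log2 change at -0.70 (SE 0.57), with an adjusted p of 0.557.

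The plakins link the plaque to the cytoskeleton. Dst (ENSMUSG00000026131.20; chromosome 1, 33908225 to 34308661, plus strand), which encodes BPAG1e among other forms, read 32, 29.5, 16 and 7.04 TPM in controls, against 12.1, 9.90, 16.6 and 13.8 TPM in experimental libraries (log2 change -0.47, SE 0.40, limma adjusted p = 0.570). These gene totals do not separate BPAG1e from the neuronal and muscle forms of Dst. Plec (ENSMUSG00000022565.15; chromosome 15, 76170974 to 76232574, minus strand), which encodes plectin, varied least of the 9, at 22.3, 19.0, 15.4 and 10.9 TPM in controls, against 14.8, 9.80, 17.9 and 14.2 TPM in experimental libraries. Its highest control was 2.04 times its lowest, against 4.55 to 9.50 times for the other 8 members. The log2 change of Plec was -0.23 (SE 0.25, 95% interval -0.78 to 0.32, limma adjusted p = 0.663).

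Lama3 and Lamb3 encode the alpha and beta chains of laminin-332. Lama3 (ENSMUSG00000024421.16; chromosome 18, 12333819 to 12583013, plus strand) read 12.4, 9.52, 5.67 and 2.42 TPM in controls, against 4.82, 3.86, 8.46 and 5.86 TPM in experimental libraries. Lamb3 (ENSMUSG00000026639.18; chromosome 1, 193207699 to 193343878, plus strand) read 29.2, 22.2, 12.5 and 3.08 TPM in controls, against 8.26, 10.8, 21.1 and 11.6 TPM in experimental libraries. These were the members nearest to no change, with log2 changes of -0.20 (SE 0.39, limma adjusted p = 0.815) for Lama3 and -0.09 (SE 0.55, limma adjusted p = 0.948) for Lamb3. Both signs depend on scaling: centring each library on its median turned them to 0.01 and 0.13, and quantile normalization turned Lamb3 to 0.08.

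**Figure D2:**
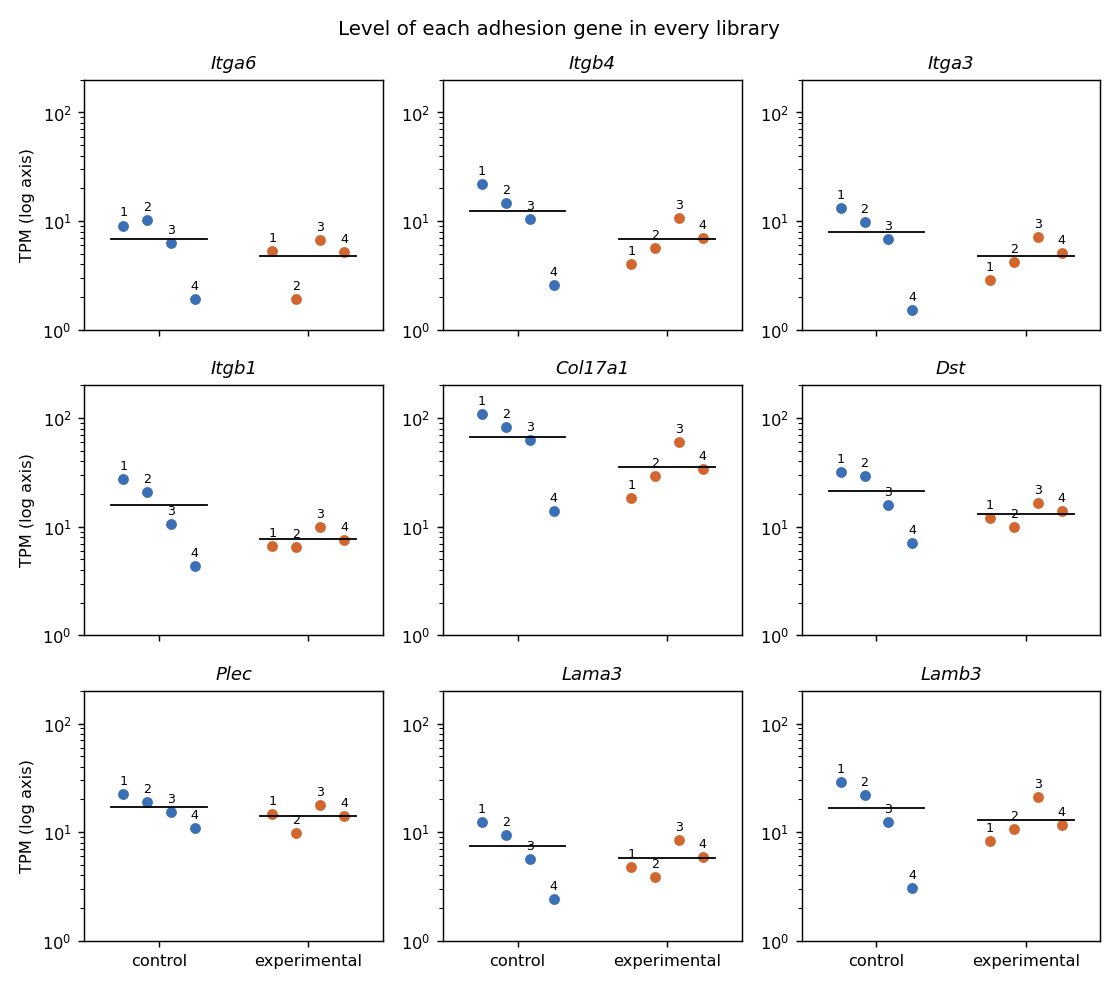
TPM of the 9 adhesion genes (log axis) in the 4 control (blue) and 4 experimental (orange) libraries, 1 point per library with its number and a line at the group mean. In every panel the experimental points lie below control libraries 1 and 2. Control library 4 is the lowest point except for Plec, where experimental library 2 is lower (9.80 against 10.9 TPM), and it is level with experimental library 2 for Itga6.

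By mean TPM, Col17a1 came first in both groups. Behind it in the controls stood Dst (21.1 ± 11.8), Plec (16.9 ± 4.89), Lamb3 (16.8 ± 11.4), Itgb1 (15.8 ± 10.3) and Itgb4 (12.4 ± 8.06), then Itga3 (7.87 ± 4.97), Lama3 (7.50 ± 4.37) and Itga6 (6.91 ± 3.71), all as TPM with SD over 4 libraries. No neighbours in this order differed by more than their SDs except Col17a1 and Dst. The SDs include variation that the genes shared between libraries, so they do not say whether an order held within each library. Itgb4 was above Itga3 in every library, while Dst was above Plec in some libraries only. In experimental libraries Plec (14.2 ± 3.32 TPM) and Dst (13.1 ± 2.81 TPM) changed places, as did Lama3 (5.75 ± 1.98 TPM) and Itga3 (4.82 ± 1.80 TPM), again within their SDs. Itga6 had the lowest mean in both groups, although Itga3 lay below it in control libraries 2 and 4 and experimental libraries 1 and 4.

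The 9 genes varied together from library to library. Control library 1 was highest of all 8 for 8 members and control library 2 for Itga6. Control library 3 ranked 3 among the controls for 9 of 9, and control library 4 came last among them for 9 of 9 and last of all 8 libraries for 8. Experimental library 3 was the highest experimental library for 9 of 9. The share of all genes with these ranks was not counted, and several marker lists below had the same order of the controls. The ranks are therefore not shown to be particular to the 9 genes. The mean log2(TPM + 1) of the 9 was 4.62, 4.32, 3.72 and 2.38 in controls and 3.06, 3.02, 3.89 and 3.42 in experimental libraries, so the controls spanned the whole experimental range.

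Ratios between genes whose products work together were steady for some pairs and loose for others. Col17a1 over Itgb4 stayed between 5.00 and 5.89 in controls and between 4.61 and 5.63 in experimental libraries while both genes varied several-fold between libraries. Itga6 over Itgb4 was looser, at 0.42 to 0.75 in controls, against 0.34 to 1.32, with experimental library 1 highest and experimental library 2 lowest. Lamb3 over Lama3 ran from 1.27 to 2.36 and from 1.71 to 2.79, Itga3 over Itgb1 from 0.35 to 0.65 and from 0.43 to 0.72, and Dst over Plec from 0.64 to 1.55 and from 0.82 to 1.01. Of 6 ratios compared between groups by exact two-sided permutation tests, none passed (p from 0.2 to 0.743, adjusted p over the 6 ratios from 0.685 to 0.743).

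Markers of the basal layer moved with these genes. The mean log2(TPM + 1) of 5 basal markers that are no members (Krt5, Krt14, Krt15, Trp63 and Tgfbi) was 9.03, 8.77, 7.83 and 6.13 in controls and 6.75, 6.91, 7.57 and 6.99 in experimental libraries. The order of the controls was that of the adhesion genes, and experimental library 3 was again the highest of its group. Summed, these 5 markers came to 902 to 7917 TPM over the controls and 1714 to 2933 TPM over the experimental libraries, and none was at 0 throughout. The mean of 8 cycling cell markers had the same order in the controls, 4.39, 3.73, 2.15 and 1.31, and stood at 2.38 to 2.76 in experimental libraries (summed, 10.8 to 169.5 TPM, against 43.3 to 53.5 TPM). The mean of 11 hair follicle and shaft markers ran the other way in the controls, from 8.33 in library 1 to 10.28 in library 4, and stood at 6.06 to 8.43 in experimental libraries (summed, 6851 to 51870 TPM, against 1610 to 11910 TPM). The mean of 10 suprabasal markers moved little, at 11.51 to 11.63 and 11.62 to 11.95, although their sum was 80460 to 92790 TPM in controls, against 100400 to 138300 TPM. Single suprabasal markers moved in opposite directions under that mean. Calml3 fell from a mean of 466 to 163 TPM and was the 1 that passed in limma (log2 change -1.57, adjusted p = 0.00847). Krt1, Krtdap and Ivl were higher in experimental libraries without overlap of the groups, and did not pass. The mean of 5 sebaceous markers was 5.41, 5.41, 4.79 and 4.75 in controls 1 to 4, against 3.49 to 4.49 in experimental libraries, without overlap, and 2 of the 5 passed in limma (summed, 163.6 to 349.5 TPM, against 64.8 to 116.3 TPM). The mean of 5 outer root sheath and bulge markers, 1 of them at 0 throughout, also had the order of the controls, from 4.26 to 3.83, against 3.43 to 4.02. So did 7 dermal fibroblast markers, 3 of them at 0 throughout (1.695, 1.235, 1.01 and 1.0 in controls). Likewise 8 markers of a mesenchymal shift, 5 of them at 0 throughout, read 2.617, 2.53, 2.283 and 1.86. Langerhans cell and macrophage, T cell and melanocyte markers were also lowest in control library 4 among the controls. The order was thus not particular to basal markers. In bulk tissue, fewer basal cells and less RNA per basal cell cannot be told apart, and the part of these markers in the adhesion gene levels was not tested beyond the covariate values below.

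**Figure D3:**
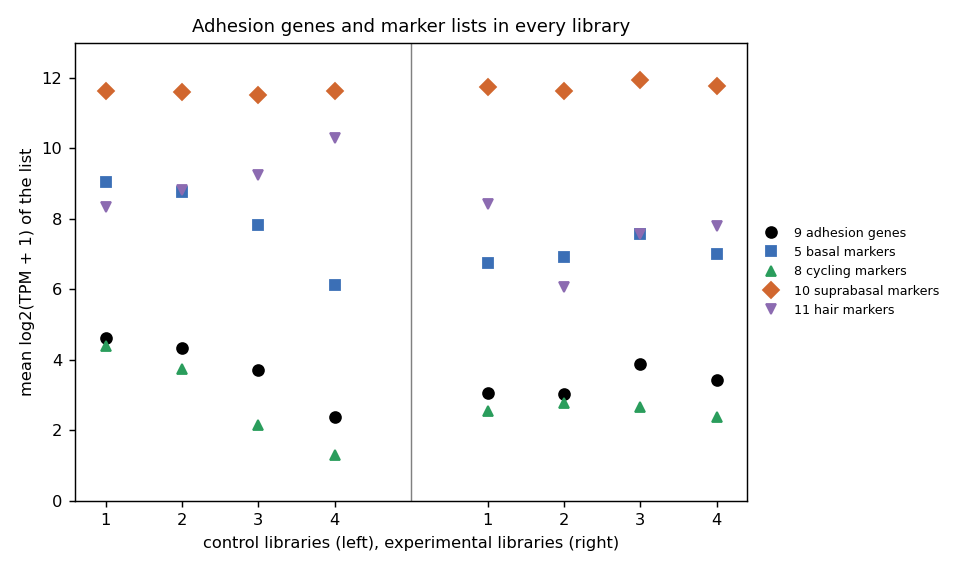
Mean log2(TPM + 1) in each library of the 9 adhesion genes (black circles), 5 basal markers (blue squares), 8 cycling markers (green triangles), 10 suprabasal markers (orange diamonds) and 11 hair markers (purple triangles). From control library 1 to control library 4 the adhesion genes go from 4.62 to 2.38 and the basal markers from 9.03 to 6.13, while the hair markers go from 8.33 to 10.28 and the suprabasal markers stay near 11.6.

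Which libraries were kept changed the calls and sizes. With each library left out in turn, 7 to 9 of the 9 changes stayed below 0, and their sizes ranged widely: from -0.79 to -0.07 for Itga6, -1.10 to -0.21 for Itgb4, -0.93 to -0.09 for Itga3, -1.18 to -0.37 for Itgb1, -1.32 to -0.36 for Col17a1, -0.89 to -0.21 for Dst, -0.41 to -0.07 for Plec, -0.58 to 0.08 for Lama3 and -0.68 to 0.28 for Lamb3. Without control library 4, Itgb1 (log2 change -1.18, adjusted p = 0.0421) and Col17a1 (-1.32, adjusted p = 0.0493) passed in limma as lower, where 3.91% of all genes passed as lower. Without control libraries 3 and 4, Itgb4, Itga3, Itgb1, Col17a1 and Dst passed as lower, with log2 changes from -1.14 (Itga3) to -1.54 (Itgb1), where 22% of all genes did. Without control libraries 1 and 2, all 9 changes were above 0, from 0.09 for Plec to 0.83 for Lamb3, and none passed in limma (lowest adjusted p = 0.342), where 5.19% of all genes passed in either direction. Library weights in limma were set by how closely each library followed its own group, with no separate measure of quality. Libraries far from their group thus counted less. With these weights, 6 members passed as lower (Itga6, Itgb4, Itga3, Itgb1, Col17a1 and Dst), where 34.4% of all genes did. Without experimental libraries 2 and 4, the ones with more mitochondrial RNA, no member passed in limma (lowest adjusted p = 0.809), where 0.139% of all genes did. The sets that leave out 2 libraries were chosen after seeing the levels. Leaving out the 2 highest or the 2 lowest controls fixes the direction in advance, so those values show only how far the controls spread.

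**Figure D4:**
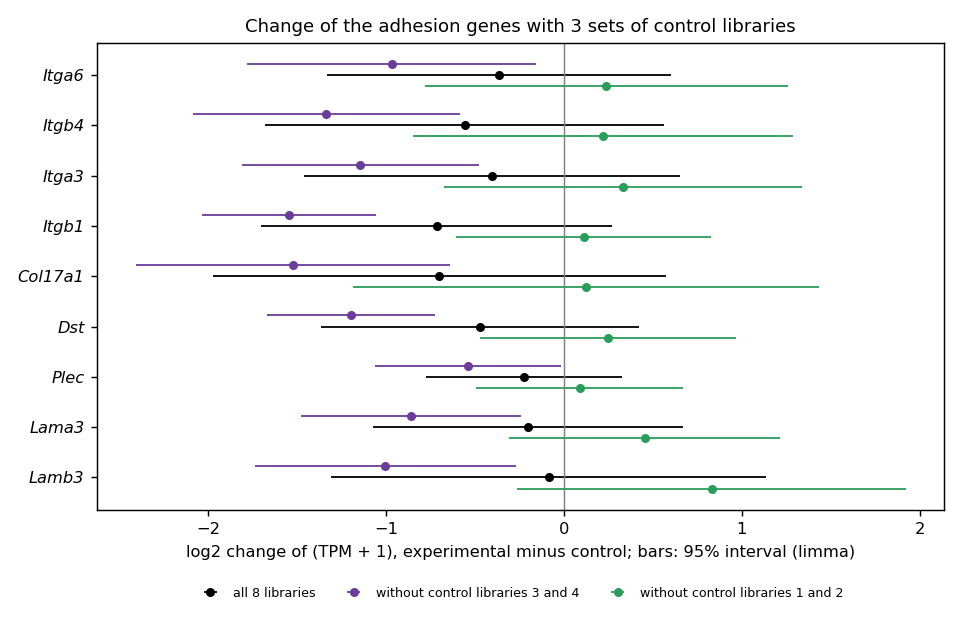
Log2 change of (TPM + 1), experimental minus control, of the 9 adhesion genes with its 95% interval from limma, over all 8 libraries (black), without control libraries 3 and 4 (purple) and without control libraries 1 and 2 (green). All purple points lie below 0 (down to -1.54 for Itgb1), all green points above 0 (up to 0.83 for Lamb3), and every black interval covers 0. The control sets were chosen by these levels.

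When the mean level of the 5 basal markers was added to the model, 8 of the 9 changes lay between -0.01 (Itgb1) and 0.40 (Lama3), and none of the 8 passed in limma. Lamb3 passed as higher (0.81, SE 0.15, adjusted p = 0.0112), where 4.19% of all genes did. That value leans on Krt15, a basal and hair follicle bulge keratin that itself fell (log2 change -2.82, SE 0.59, limma adjusted p = 0.0361). Without Krt15 in the marker mean, Lamb3 changed by 0.31 (adjusted p = 0.263), and no member passed, where 10.3% of all genes did. In that model Itgb1 was the member with the lowest p (-0.39, adjusted p = 0.0583).

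Around these members, 5 lists of 99 adhesion genes, members included, were read in the same fit. Of 66 tested, 1 passed, as lower (1.54% of all genes tested did), and 53 changes were below 0 (74.5% of all genes), with a median of -0.27 (all genes -0.18). An unadjusted p under 0.05 was seen for 9 of the 66 (16.9% of all genes), and groups without overlap for 8 (12.6% of all genes). The counts of changes below 0 in the lists that follow stand beside the same 74.5% of all genes. The gene that passed was Itgb8, which encodes the beta8 chain of an integrin that activates latent TGF-beta and is no part of hemidesmosomes. Itgb8 read 3.74, 3.8, 2.23 and 3.25 TPM in controls, against 1.28, 0, 1.05 and 1.03 TPM in experimental libraries, where 0 stands for 1 TPM or less. All experimental libraries lay below all controls (log2 change -1.01, SE 0.17, limma adjusted p = 0.0142), and the authors' deposited table also lists it (log2 fold change -1.48, adjusted p = 2.4e-08). The Itgb8 call was lost without control library 2 (-0.95, adjusted p = 0.0571), experimental library 3 (-1.0, adjusted p = 0.0624) or experimental library 4 (-1.0, adjusted p = 0.051).

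Of 16 laminins and other basement membrane proteins tested (29 listed, 9 of them at 0 throughout), none passed, none had an unadjusted p under 0.05 and 14 changes were below 0. The lowest p values were those of Tinagl1, a matrix glycoprotein (0.39, adjusted p = 0.413), and Npnt, which encodes nephronectin, a ligand of alpha8beta1 integrin (-0.52, adjusted p = 0.479). Of 16 integrins and laminin receptors tested, Itgb8 passed and 10 changes were below 0. Of 9 plaque and keratin anchor genes, none passed, 7 changes were below 0, and those of Eppk1 and Macf1 (0.24) were above. Eppk1, which encodes the plakin epiplakin, read 12.0, 10.6, 11.4 and 10.6 TPM in controls, against 25.1, 12.5, 20.8 and 24.2 TPM in experimental libraries, without overlap (log2 change 0.79, SE 0.22, limma adjusted p = 0.0983). Evpl, which encodes envoplakin of the cornified envelope, was second by p (-0.42, adjusted p = 0.456).

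Of 17 integrin-linked cytoplasmic adaptors tested, 16 changes were below 0 and none passed. Tln2, which encodes talin 2, a link from integrins to actin, came nearest, at 2.90, 3.72, 2.23 and 3.44 TPM in controls, against 2.13, 0, 1.15 and 1.25 TPM in experimental libraries (log2 change -0.78, SE 0.19, limma adjusted p = 0.065). Bcar1, which encodes the focal adhesion scaffold p130Cas, followed (-0.64, adjusted p = 0.169). The authors' deposited table lists 5 of the 99 genes as falls. They are Itgb8, Fras1, a gene of the basement membrane complex lost in Fraser syndrome (log2 fold change -1.36), Tln2 (-1.01), Ptk2, the focal adhesion kinase gene (-0.64), and Bcar1 (-0.61). That table lists 4.72% of all genes tested here. Only 66 of the 99 were tested, and Fras1, which did not pass the filter, was not among them. Of 8 proteases tested that process laminin-332 or shed collagen XVII, none passed and 6 changes were below 0, with Bmp1 (-0.62, adjusted p = 0.259) and Adam9 (-0.68, adjusted p = 0.308) lowest by p.

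Besides Itga6, the splicing table held 4 of the 99 genes, and each value here is from the authors' deposited table. Col18a1, a basement membrane collagen gene (chromosome 10, minus strand), moved between alternative 5′ splice sites: the proximal one went from 0.018 to 0.562 and the distal one from 0.822 to 0.277. Use of the proximal site keeps the segment between them, 77112218 to 77112958 on GRCm38, which is 741 bases, or 247 codons. Tln2 moved in part from a distal to a proximal first exon (proximal 0.071 to 0.379, distal 0.927 to 0.616). Tln1, which encodes talin 1, moved the other way (proximal 0.323 to 0.046). The authors mark both proximal junctions as de novo, that is, absent from the gene annotation. They mark the Tln2 event as a putative first exon event only. Macf1 encodes a plakin that joins microtubules and actin. Among its reads leaving an exon of 18 bases, the part that ran on into the following intron rose from 0.155 to 0.695. That value is a share at the 18-base exon only and not of all Macf1 transcripts. Seen from the next exon, the junction from the 18-base exon fell from 0.307 to 0.025, while the junction that passes over it rose from 0.437 to 0.708. Read from its other end, that same junction was at 0.855 and 0.930 with a posterior probability of 0.0, and the authors mark these Macf1 events as complex. That exon is shown because it is short, on the minus strand of GRCm38, and whether its bases are coding was not checked.
Macf1 microexon, chr4:123364057-123364074: ttcttcctcggcaatcag
The levels of these genes did not pass in limma.

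Outside the lists, the genes whose library-to-library profile was nearest to the mean profile of the 9 were found by root mean square difference of centred log2(TPM + 1), over 8 libraries and 7439 genes with a mean of at least 5 TPM. The 10 nearest were Wnt10a, Marveld1, Ltbp4, Oat, Itm2c, Cxcl14, P2ry1, Ppic, Large2 and Hmgn1, at 0.13 to 0.20, against a median of 0.60 over the genes searched. Wnt10a stood at 0.133, with means of 8 TPM in controls, against 5.24 TPM in experimental libraries. Among the members, Itga3 was the nearest of all genes to Itgb4 (0.101), and Itgb4 the nearest to Col17a1 (0.170). Hmgn1 was nearest to Lama3 (0.110), Ajuba to both Itga6 (0.208) and Dst (0.129), Tmpo to Itgb1 (0.161) and Srsf2 to Plec (0.0548).

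Since these genes moved together across libraries, promoter sequence was read where the RefSeq promoter table (GRCm38.p6) had an entry: 8 promoters of 5 members, Itga3, Itgb1, Col17a1, Dst and Lamb3. The windows hold up to 250 bases before the start site, and 5 short motifs were searched on both strands. The sequences of Col17a1 (198 bases) and of Itga3 at 95076802 to 95076964 (163 bases) end where the GENCODE gene begins. The Dst and Lamb3 windows and the Itga3 window at 95069199 to 95069448 lie inside the GENCODE gene, at 250 bases each. Among these, the Dst window at 34011345 to 34011594 and that Itga3 window hold GC boxes. The GC box GGGCGG was in 4 of 8, against 32.7% of 32851 promoters. TATAAA was in 1 of 8 (12.4% of all), the TEAD motif GGAATG in 2 of 8 (12.6%), and the AP-1 motif TGANTCA (6.75%) and the grainyhead motif AACNGGTT (1.79%) in none. A pair of promoters is shown because their motif matches differ while their genes moved alike. Col17a1 has TATAAA matches and Itga3 has GGGCGG matches, each in capitals, both read on the minus strand. Whether these matches bear on the levels was not tested.
Col17a1 promoter, chr19:47692095-47692292: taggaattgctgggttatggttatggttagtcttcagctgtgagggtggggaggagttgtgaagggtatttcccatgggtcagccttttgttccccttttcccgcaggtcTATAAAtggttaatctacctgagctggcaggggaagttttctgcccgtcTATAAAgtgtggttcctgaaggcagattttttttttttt
Itga3 promoter, chr11:95076802-95076964: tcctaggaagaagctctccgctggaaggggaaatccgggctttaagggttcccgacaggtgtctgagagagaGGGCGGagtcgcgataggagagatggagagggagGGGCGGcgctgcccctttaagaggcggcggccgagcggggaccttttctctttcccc
A match is a stretch of letters and not a measured binding site.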

How the data were processed

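Expression values as deposited by the authors are log2 TPM per gene and list 0 for anything not above 1 TPM; that reading was checked against the mean normalized count signal of the authors' deposited DESeq2 table. Tools named in the submitters' processing notes are Salmon 0.14.0, STAR, DESeq and SAMtools 1.9, with mm10 and GRCm38 as builds. The authors' deposited DESeq2 table holds that signal, log2 fold changes, a Wald score and p-values. The authors' deposited MAJIQ table holds PSI as a fraction per group, its difference as a score, and posterior probabilities.

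Identifiers were matched to symbols (21662 of 21690), with GENCODE M21 coordinates (GRCm38). TPM values were set to at least 1, transformed as log2(TPM + 1), filtered at a mean of 1 TPM and fitted in limma 3.58.1 (R 4.3.3; group only, variance trend, two-sided, Benjamini-Hochberg adjustment over 10682 genes, threshold 0.05). A fold on this scale understates changes of low genes. On simulated data, 64% of changes of 1 and 92% of changes of 2 (log2) were recovered over 10630 genes, with 8 false calls. The changed genes there were drawn only from genes of higher level, and each gene varied independently. These shares therefore do not measure recovery for low members such as Itga6, or where libraries shift together as for the members here. Column names give the group, and their numbers match no label, so libraries are numbered 1 to 4 in table order and are not paired. The authors mark the deposited expression values as not corrected for batch. No label says which libraries shared a batch, so the part of batch in the spread of the controls was not tested. Where nothing says that libraries came from separate litters, p-values measure only the spread between these libraries. The design assumed log2(TPM + 1) values, and the listed values were turned back to TPM first.

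The members and lists were chosen with earlier results of these data known. Named genes are all members, list genes past the threshold or else the 2 of lowest p in a list, list genes in the splicing table, the 10 nearest profiles and the nearest to each member (1 is not reported here), and Esrp1 and Esrp2. The genes of the authors' table, Krt15, Ptk2, Calml3, Krt1, Krtdap and Ivl were named after their values were seen. Alternatives were other pseudocounts (0.1 and 0.5 TPM), filters, scalings, library weights, no variance trend and each library left out. Those chosen after seeing the data were pairs of libraries left out and basal markers as a covariate. Figures used matplotlib 3.10.9.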

Additional observations from a re-analysis of the deposited data

Results flagged for a closer look

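Among the 20 sets of 4 libraries tested for a value far from the others, 1 stood apart: Itgb8 in experimental library 1, at 1.28 TPM, against 1.05, 1.03 and 1 TPM or less in the other experimental libraries. All of these lie close to the floor of 1 TPM. Chance marks about 1 set in 20.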

How the results depend on the processing

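No paired analysis was possible because the columns carry no replicate number of the labels. Pseudocounts of 0.1 and 0.5 TPM, either filter and no variance trend changed no member's direction or call. Leaving out 1 library in turn gave 85 to 578 genes past the threshold, 0 to 2 members, 0 to 4 list genes, Lama3 changes of -0.58 to 0.075 and Lamb3 changes of -0.68 to 0.28. The main count of 263 genes moved to 121 without control library 2, 91 without control library 3, 578 without control library 4, and 140, 135, 85 and 101 without experimental libraries 1 to 4. Library weights gave 4423 genes, 6 members and 32 list genes. The list count was 0 with a mean of at least 5 TPM and 2 with median centring or quantile normalization. Median centring reversed Lama3 (0.011) and Lamb3 (0.13), and quantile normalization Lamb3 (0.081); centring gave 385 genes, 283 higher and 102 lower, and quantile normalization 386, 269 higher and 117 lower. Without control libraries 3 and 4 there were 2595 genes, 5 members and 28 list genes. Without control libraries 1 and 2 there were 544 genes, and every member reversed: Itga6 0.24, Itgb4 0.22, Itga3 0.33, Itgb1 0.11, Col17a1 0.13, Dst 0.25, Plec 0.088, Lama3 0.46, Lamb3 0.83. Without experimental libraries 2 and 4 there were 15 genes and 0 list genes, Lamb3 read 0.029, and the calls of Itgb8 (-0.96, adjusted p = 0.205) and Esrp1 (-0.99, adjusted p = 0.154) were lost in limma. The basal marker covariate gave 1169 genes, 1 member and 6 list genes, with Itga6 0.23, Itgb4 0.24, Itga3 0.35, Col17a1 0.21, Dst 0.16, Plec 0.068, Lama3 0.40 and Lamb3 0.81 reversed. Without Krt15 it gave 1095 genes and 5 list genes, with Lama3 0.073 and Lamb3 0.31 reversed. The cause of these shifts was not tested. The Itga6 entries pass a posterior probability of 0.95 and an absolute PSI change of 0.2, so 1 member stayed listed. Depth is unknown, which limits genes near 1 TPM such as Itgb8 and Tln2.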
